A study of Arabidopsis thaliana with 12 samples.

Results

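Unstressed seedlings of the Arabidopsis mutant cost1 were compared with unstressed wild type (WT) seedlings. This comparison takes 6 of the 12 libraries of the study: cost1 control replicates 1 to 3 and WT control replicates 1 to 3, chosen by the genotype and treatment in their labels. All plants were 10 days old and had been raised from seed on upright plates with half-strength Murashige and Skoog medium, and poly(A) RNA was taken from whole seedlings. In the other 6 libraries, 3 of each genotype, seedlings of similar size had also been dehydrated on a petri dish for 6 h. The labels name no mutant allele. They also do not say whether a group's libraries are separate cultures, and the p-values then reflect a spread that may be only technical. Because whole seedlings were used, fewer cells of a type and less RNA per cell cannot be told apart.

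COST1 (AT2G45260) belongs to a plant protein family marked by the DUF641 domain, and the title of the study links it to the attenuation of autophagy. In autophagy, cytoplasm and organelles are enclosed in a double membrane and carried to the vacuole. The ATG1 kinase complex starts the process, and ATG8 proteins, attached to the growing membrane, bind receptors such as NBR1 that bring in cargo. The TOR kinase holds autophagy back when nutrients are plentiful, and the SnRK1 kinase promotes it when energy is short. Drought raises the hormone abscisic acid (ABA), which acts through PYR/PYL receptors, clade A PP2C phosphatases and SnRK2 kinases to switch on protective genes such as RD29A.

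Expected counts per library summed to between 5884728 and 6223687, and 21003 to 21312 genes were listed in a control library. Levels are given as CPM, counts scaled to the size of the library, always in the order of replicates 1, 2 and 3. A gene was called when edgeR's quasi-likelihood F test gave an adjusted p under 0.05 over all 18809 genes tested, in a fit of all 12 libraries. Cost1 control replicate 2 stood apart from the other control libraries. On the first principal component of the 6 control libraries, which held 51.5% of the variance, it lay at 77.6 and the other 5 between −23.5 and −4.27. Across genes it correlated with the other control libraries at 0.936 to 0.947, while those correlated among themselves at 0.975 to 0.982. Results that this library moves are therefore also given from the 5 remaining control libraries, fitted on their own, which is the fit meant by a value without replicate 2. That fit leaves out the dehydrated groups as well, so it differs from the fit of all groups in both respects.

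Few genes differed between the genotypes at this threshold: 3 were higher in cost1 (0.0159% of genes tested) and 1 was lower (0.00532%). At an unadjusted p under 0.05, 621 genes were higher (3.3%) and 272 lower (1.45%). The control libraries of the genotypes did not overlap in 1462 genes that were higher in cost1 (7.77%) and 1389 that were lower (7.38%). Without cost1 control replicate 2, the 5 libraries gave 18 higher genes (0.101% of 17897 tested) and 1 lower (0.00559%). All 4 genes called in the fit of all 12 libraries were among those 19.

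The gene called lower was COST1 itself. It was at 27.1, 32.7 and 29.3 CPM in WT control and at 7.97, 7.49 and 5.33 CPM in cost1 control, so that every mutant library lay below every WT library, at a mean of 23.3% of the WT level. The log2 difference was −2.10 (SE 0.17, edgeR adjusted p = 0.000683), and −2.16 (SE 0.18, adjusted p = 0.000179) in the 5 libraries. It was called under 17 of 18 alternatives and lost under the replicate block. Which part of the gene the remaining reads cover is not shown by these tables. Of the genes next to COST1 on the chromosome, AT2G45250, which encodes a hemolysin-III-like membrane protein, differed by −0.27 on the log2 scale (SE 0.13), GCP1, a glycoprotease gene, by −0.13 (SE 0.15) and RAD51C, which acts in DNA repair, by 0.14 (SE 0.34). None of these was called. The fourth neighbour, AT2G09600, had no count in any library. A gene that a library does not list was read as 0, so whether AT2G09600 was measured is not shown.

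Of 9 genes annotated as DUF641 family members 8 were listed and 7 were tested, COST1 included, and no other member was called. Their median log2 difference was −0.06, beside 0.01 over all genes tested. It was 0.05 without replicate 2, over the 6 members tested in that fit. GIL1, known for its part in the gravity response of stems in light, was at 44.2, 48.1 and 41.0 CPM in WT control and 44.8, 39.3 and 39.8 CPM in cost1 control. AT4G34080, the least abundant member tested, was at 0.317, 0.455 and 0.475 CPM in WT control and 0.957, 1.43 and 1.48 CPM in cost1 control. Those libraries did not overlap, but the difference did not pass the adjusted threshold (1.59, SE 0.46, unadjusted p = 0.00489, edgeR adjusted p = 0.965).

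Among the genes that rose, AT1G75945 and AT1G64795 were near absence in WT and present in every mutant library. Both are annotated as uncharacterized proteins. AT1G75945 was at 0.158, 0 and 0.158 CPM in WT control and 4.94, 7.64 and 7.25 CPM in cost1 control (edgeR adjusted p = 0.00872). Its counts summed to 2 in WT and 128 in cost1, a ratio of 63.7 with a 95% Poisson interval of 17.3 to 532, which covers counting error only. AT1G64795 had no count in WT control and was at 2.87, 3.19 and 2.52 CPM in cost1 control (adjusted p = 0.021). With a floor of 3 counts over the WT group, it was at least 18.3-fold higher in cost1. In cost1 control the level per length was 17.8 ± 1.41 FPKM (SD, n = 3) for AT1G64795 and 16.0 ± 3.38 FPKM for AT1G75945. The mean of AT1G64795 lay within the SD of AT1G75945, but not the reverse. COST1 was left at 4.01 ± 0.740 FPKM.

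The third gene called higher, AT4G38080, encodes a protein of the hydroxyproline-rich glycoprotein family, a group of cell wall proteins. It was at 2.06, 1.52 and 1.11 CPM in WT control and 6.54, 8.60 and 8.29 CPM in cost1 control. The mutant libraries were all above the WT ones, and the log2 difference was 2.31 (SE 0.30, edgeR adjusted p = 0.027). All 3 genes were also called in the 5 libraries (adjusted p = 0.00151 for AT1G75945 and 0.0177 for both others). These calls depended on single libraries in the fit of all groups. Without WT control replicate 1, 2 or 3 or cost1 control replicate 3, no gene was called higher. Without cost1 control replicate 2 in that fit, 1 was, AT1G75945. For the 3 genes, these losses came with adjusted p-values of 0.0542 to 0.290.

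**Figure D1:**
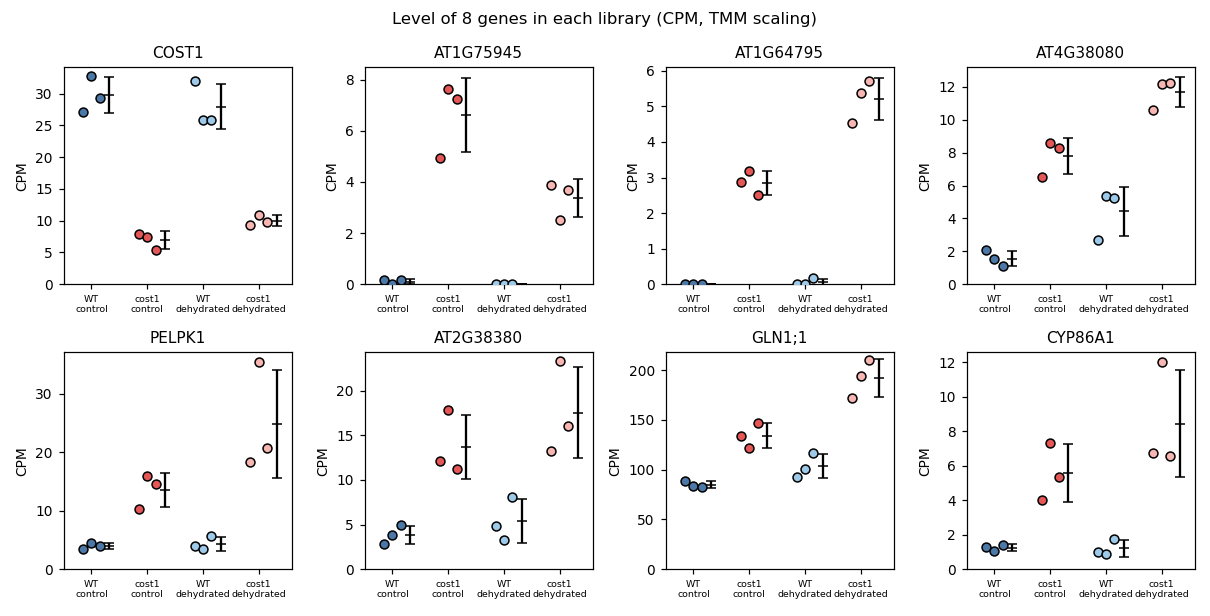
Level of 8 genes in CPM (vertical axis, linear) in each of the 12 libraries, as points by group, with the mean and SD of 3 libraries beside them. COST1 lies lower in all 6 cost1 libraries, and for the other 7 genes the lowest cost1 library lies above the highest WT library in both treatments.

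A further 15 genes, all higher in cost1, were called by edgeR in the fit of the 5 libraries, which rests on 2 mutant libraries, and not in that of all groups. None of the 15 was called when cost1 control replicate 2 was left out and the dehydrated groups stayed in the fit. Their log2 differences were nearly the same in both fits, with larger SEs where the dehydrated groups stayed in. For GLN1;1 it was 0.72 (SE 0.13) there. The spread between replicates (common biological coefficient of variation) was 0.0796 in the 5 libraries, with 3 residual degrees of freedom, and 0.197 in all 12. DESeq2 and limma voom with library quality weights, both on all 12 libraries, called 4 of the 15: GLN1;1, PELPK1, AT2G38380 and CAX7. In 13 of the 18 higher genes of the 5 libraries, the library left out was also above every WT library. These include AT1G75945, AT1G64795 and AT4G38080, which were also called with that library in the fit. How many of all genes have that library above every WT library was not counted. GLN1;1 encodes a cytosolic glutamine synthetase, which joins ammonium to glutamate. It was at 88.9, 83.8 and 82.1 CPM in WT control and 133.6, 121.7 and 147.1 CPM in cost1 control. The groups did not overlap, and the log2 difference was 0.73 in the 5 libraries (SE 0.08, edgeR adjusted p = 0.00222) and 0.66 in all groups (SE 0.12, adjusted p = 0.369). PELPK1, another gene of the hydroxyproline-rich glycoprotein family, was at 3.49, 4.55 and 3.96 CPM in WT control and 10.2, 15.9 and 14.5 CPM in cost1 control. Its difference was 1.63 (SE 0.23, edgeR adjusted p = 0.0177) in the 5 libraries, 1.75 (SE 0.30, adjusted p = 0.264) in all 12, and 1.62 (SE 0.32, adjusted p = 0.985) in all but replicate 2.

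AT2G38380, a gene of the peroxidase superfamily, was at 2.85, 3.79 and 4.91 CPM in WT control and 12.1, 17.8 and 11.3 CPM in cost1 control. Its log2 difference was 1.60 (SE 0.24, edgeR adjusted p = 0.0201) in the 5 libraries and 1.83 (SE 0.34, adjusted p = 0.369) in the fit of all groups. PYD4, named for a step of pyrimidine breakdown, was at 4.28, 3.03 and 4.91 CPM in WT control and 11.001, 23.3 and 13.6 CPM in cost1 control. The rule that named this gene required the 2 lower mutant values to lie above every WT value. Replicate 2, which the rule did not use, was higher still.

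In other genes of these 15, cost1 control replicate 2 went the other way. AT3G16670, of the Pollen Ole e 1 allergen and extensin family, was at 114.6, 122.6 and 122.1 CPM in WT control and 176.5, 56.4 and 166.4 CPM in cost1 control. Its neighbour of the same family, AT3G16660, was at 45.3, 47.1 and 46.7 CPM in WT and 85.3, 39.0 and 73.6 CPM in the mutant. NRT1.1, a nitrate transporter and sensor, was at 228.8, 228.6 and 212.6 CPM in WT and 297.5, 169.6 and 309.0 CPM in the mutant. In these 3 genes, replicate 2 was below every WT library and both other mutant libraries above. The same held for AT3G22125, also of the 15, at 47.1, 52.4 and 53.4 CPM in WT and 71.1, 38.2 and 86.7 CPM in the mutant. AT4G22485, annotated with a lipid-transfer protein domain, had a smaller difference of 0.54 (SE 0.07, adjusted p = 0.0117) in the 5 libraries. It lies close to AT4G22495, another gene of the 15, and reads of such neighbouring relatives may be shared, so that their separate values, like those of AT3G16660 and AT3G16670, are uncertain.

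The remaining genes of the 15 were chosen by no rule and complete the count. YSL1, known as a transporter of metal chelates, differed by 0.73 (SE 0.12, edgeR adjusted p = 0.0349) in the 5 libraries and CAX7, a cation exchanger gene, by 0.82 (SE 0.14, adjusted p = 0.0367). CORI3, a gene of the tyrosine transaminase family, was at 29.6, 27.3 and 30.7 CPM in WT control and 43.5, 230.3 and 55.4 CPM in cost1 control. The last 3, AT1G75280, AT3G18280 and AT3G22125, had log2 differences of 0.59, 0.75 and 0.63 in the 5 libraries. With all groups in the fit these were 1.02, 0.85 and 0.36 (edgeR adjusted p = 0.965 for each).

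The genotypes were also compared in the dehydrated libraries, whose group means share no library with the control comparison, although all 12 libraries share 1 estimate of the spread. All 4 genes called in control lay in the same direction there, and 3 of them were called, against 7 genes called in all under dehydration (0.0372% of genes tested). Of the 19 genes called in the 5 control libraries, 19 lay in the same direction under dehydration. There, 11 of them had an unadjusted p under 0.05 (8.7% of all genes, counting either direction), and 5 were called. Of all 18809 genes tested, 1222 both lay in the same direction and had an unadjusted p under 0.05 under dehydration. Over all genes tested, 57.9% lay in the same direction. COST1 was at 31.999, 25.8 and 25.9 CPM in WT dehydrated and 9.26, 10.9 and 9.73 CPM in cost1 dehydrated (−1.48, SE 0.17, edgeR adjusted p = 0.011). AT1G75945 had no count in WT dehydrated and was at 3.87, 2.51 and 3.69 CPM in cost1 dehydrated (adjusted p = 0.0184), and AT1G64795 was at 0, 0 and 0.175 CPM against 4.54, 5.37 and 5.70 CPM (adjusted p = 0.011).

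PELPK1 was at 3.87, 3.44 and 5.603 CPM in WT dehydrated and 18.3, 35.5 and 20.8 CPM in cost1 dehydrated, a log2 difference of 2.52 (SE 0.29, edgeR adjusted p = 0.011). GLN1;1 was at 92.5, 101.1 and 116.3 CPM against 172.0, 194.5 and 210.0 CPM (0.90, SE 0.12, adjusted p = 0.027). AT4G38080 was at 2.69, 5.34 and 5.25 CPM against 10.6, 12.2 and 12.2 CPM, and its difference of 1.40 (SE 0.26) did not pass the threshold there (adjusted p = 0.204). The groups did not overlap in any of these 3 genes, as in 4.92% of all genes with cost1 higher. AT5G24240, a gene of the phosphatidylinositol 4-kinase gamma family, was called only under dehydration (adjusted p = 0.0197), at 15.1, 11.8 and 11.4 CPM in cost1 and 0.674, 0.344 and 1.75 CPM in WT. In control it was at 1.91, 3.03 and 1.48 CPM in cost1 and 0.317, 0 and 0 CPM in WT. Whether a genotype difference depended on treatment was tested as an interaction in the same fit. No gene passed at an adjusted p under 0.05, while 690 of 18809 had an unadjusted p under 0.05.

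**Figure D2:**
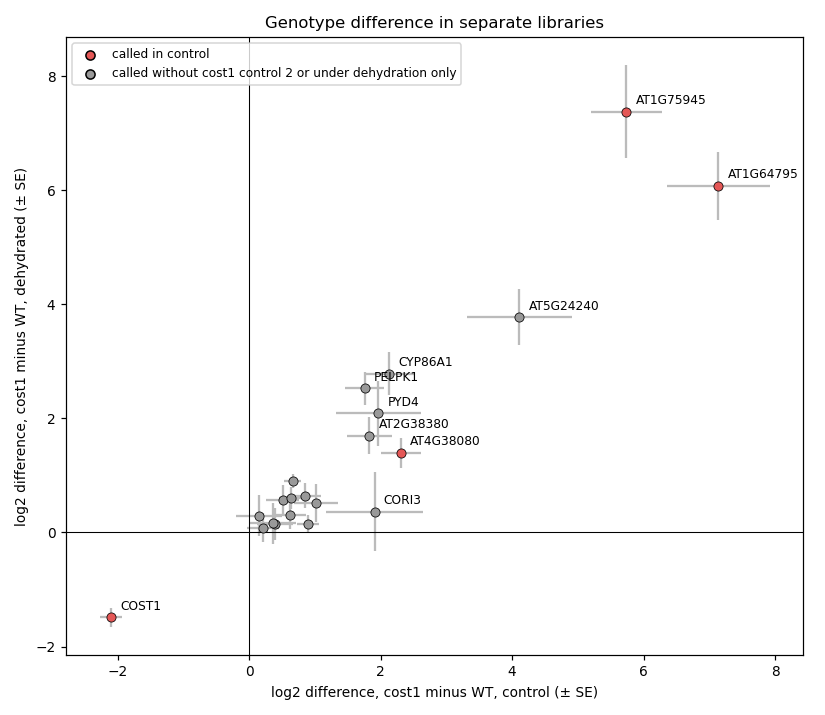
Log2 difference of cost1 minus WT in the control libraries (horizontal axis) and in the dehydrated libraries (vertical axis), each with its SE, for the 21 genes called in control, in the 5 control libraries or under dehydration. All 21 lie in the same direction on both axes, and COST1 is the only one that is lower in the mutant.

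Genes were also described by 27 lists of known function, without a test of a list. A list median without replicate 2 covers the members tested in that fit, which were fewer in some lists. In 26 of them no member was called, and the exception was the DUF641 family with COST1. The list of suberin, cutin and Casparian strip genes held 7 of 18 tested members at an unadjusted p under 0.05, all higher in cost1, beside 3.3% of all genes. Suberin is the waxy polyester that seals root cell walls. The median log2 difference was 0.30 over 18 members with cost1 control replicate 2. It was 0.15 without it, over the 15 members tested in that fit. CYP86A1, a hydroxylase that makes fatty acid monomers of root suberin, was at 1.27, 1.06 and 1.43 CPM in WT control and 3.99, 7.33 and 5.33 CPM in cost1 control. Those libraries did not overlap, and the log2 difference of 2.13 (SE 0.38) had an edgeR adjusted p of 0.285 with all groups in the fit and 0.0731 in the 5 libraries. On all 12 libraries it was called by DESeq2 (2.15, adjusted p = 0.00856) and by voom with library quality weights (1.95, adjusted p = 0.0449). Under dehydration CYP86A1 was at 1.01, 0.861 and 1.75 CPM in WT and 6.73, 11.999 and 6.54 CPM in cost1, which was called (2.78, SE 0.38, adjusted p = 0.027).

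Other genes of the suberin pathway had values in the same direction that were not called in control. GPAT5, an acyltransferase that joins the monomers to glycerol, was at 0.317, 0 and 0.158 CPM in WT control and 1.28, 1.59 and 1.63 CPM in cost1 control. CYP86B1, which hydroxylates very long chains, was at 0.317, 0.152 and 0.951 CPM in WT and 1.59, 1.43 and 3.26 CPM in the mutant. ASFT, a feruloyl transferase, was at 4.60, 3.33 and 3.49 CPM in WT and 6.54, 5.57 and 9.62 CPM in the mutant. In these 3 genes every mutant library was above every WT library. Members known for the cuticle of leaves and flowers did not share this: CYP86A2 differed by −0.02 on the log2 scale (SE 0.13), GPAT4 by −0.10 (SE 0.13) and GPAT6 by −0.12 (SE 0.30). Without replicate 2, 8 members of the list did not overlap between genotypes, all higher in cost1, where 12.5% of all genes did so in that direction. Root cell markers, given because several suberin genes are root genes, were at a sum of 109.4 to 115.5 CPM in WT control and 108.6 to 126.6 CPM in cost1 control over 12 listed genes; their part in the suberin values was not tested.

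No tested gene of autophagy, the process tied to COST1, was called. Of the symbols in that list 14 could not be tied to 1 gene, among them the ATG1 kinases and ATG13, ATG2, ATG4, ATG5 and ATG16, so most of the complex that starts autophagy is not described here. None of the 32 tested members had an unadjusted p under 0.05, and the median log2 difference was −0.04, or −0.01 without replicate 2. NBR1, the cargo receptor, was at 198, 199 and 203 CPM in WT control and 203, 211 and 206 CPM in cost1 control, a difference of 0.05 (SE 0.10). VPS34, the lipid kinase of the early autophagosome, differed by −0.01 (SE 0.12), and ATG9, a membrane protein that supplies lipid, by 0.03 (SE 0.16). The smallest p in the list belonged to ATG8E, one of the ATG8 proteins, at 49.9, 44.0 and 49.0 CPM in WT control and 45.0, 21.0 and 34.5 CPM in cost1 control. Its difference was −0.51 (SE 0.28, unadjusted p = 0.0996), or −0.26 (SE 0.12) without replicate 2, the lowest library. Among 10 tested genes of the TOR and SnRK1 kinases the median was 0.08, or 0.04 without replicate 2. AKINBETA1, a regulatory subunit of SnRK1, was at 68.9, 71.4 and 62.4 CPM in WT control and 63.1, 19.0 and 38.9 CPM in cost1 control, with the widest departure again in replicate 2 (−0.74, SE 0.32, adjusted p = 0.965).

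Stress and pigment genes of the mutant group differed most in cost1 control replicate 2. In 608 genes this library was at least 2-fold above both other cost1 control libraries, and in 457 at least 2-fold below both, while the other 5 control libraries gave 28 to 95 and 32 to 114 genes by the same rule. Of the 608 genes, 371 (61.0%) rose in the dehydration response of WT, where 24.9% of all genes did, and 5 fell. Of the 457 genes, 220 (48.1%) fell in that response, where 20.6% of all genes did, and 40 (8.75%) rose. These counts share no library with the WT response. In 21 of the 27 lists, replicate 2 was the cost1 library with the median farthest from the WT mean.

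**Figure D3:**
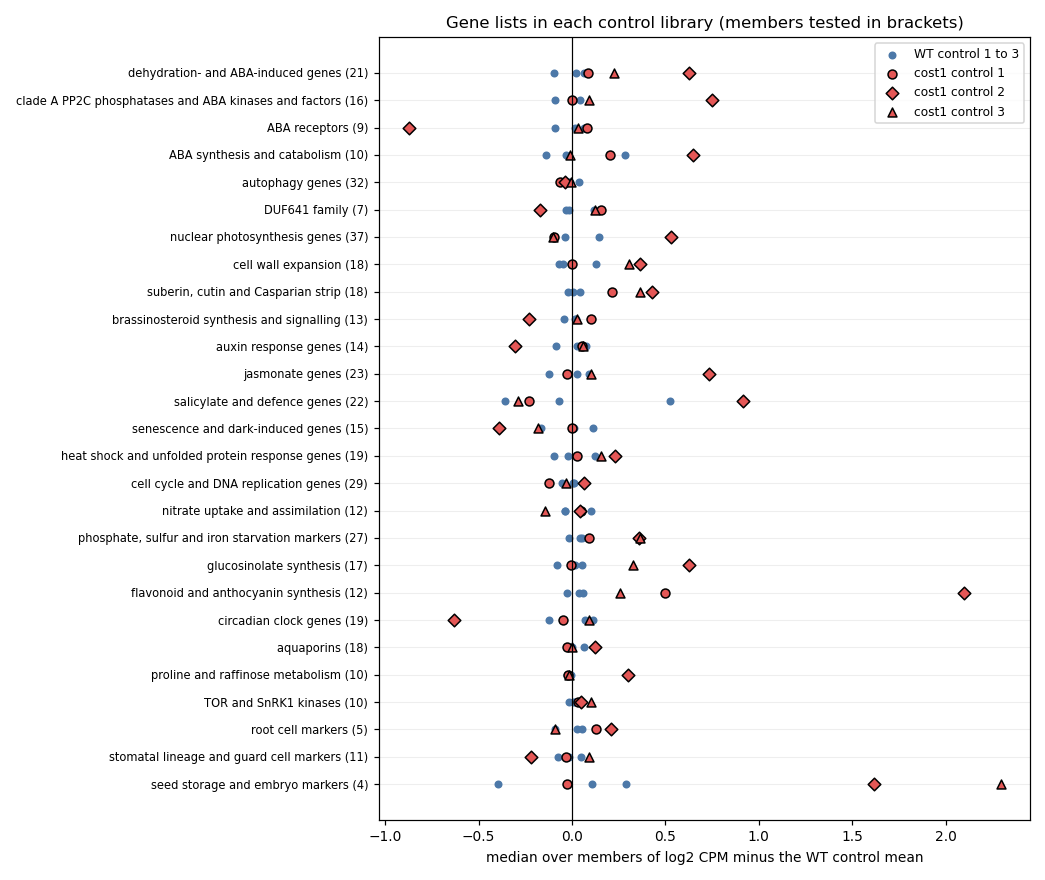
Median over the tested members of each list (vertical axis, members tested in brackets) of log2 CPM minus the mean of the WT control libraries (horizontal axis), for each of the 6 control libraries. Cost1 control replicate 2 (diamonds) lies farthest from the WT mean of the mutant libraries in 21 of 27 lists, with flavonoid and anthocyanin synthesis at 2.098.

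Dehydration- and ABA-induced genes had median differences from the WT mean of 0.09, 0.63 and 0.22 in the 3 mutant libraries, on the log2 scale. Of 21 tested members, 4 had an unadjusted p under 0.05, all higher, beside 3.3% of all genes. RD29A was at 14.6, 12.7 and 15.1 CPM in WT control and 23.3, 60.8 and 22.1 CPM in cost1 control. All mutant libraries were above WT, and the log2 difference was 1.32 (SE 0.41, edgeR adjusted p = 0.965), or 0.68 (SE 0.13, adjusted p = 0.0738) without replicate 2. Dehydrated WT seedlings held 1729 to 2347 CPM of RD29A. COR15A, which encodes a chloroplast protein that protects membranes, was at 1.90, 1.06 and 1.58 CPM in WT control and 2.71, 37.7 and 1.92 CPM in cost1 control. NCED3, a key enzyme of ABA synthesis, was at 2.06, 1.67 and 0.792 CPM in WT and 2.23, 7.17 and 1.78 CPM in the mutant. ABA receptors had library medians of 0.08, −0.87 and 0.04, and PYL5 was at 57.7, 10.5 and 45.1 CPM in the mutant against 66.9, 65.2 and 60.0 CPM in WT.

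Proline and raffinose genes went both ways. Of 10 tested members 5 had a positive log2 difference, and the median was 0.08, or −0.13 over 8 members without replicate 2. P5CS1, which makes the first step of proline synthesis, was at 38.2, 40.2 and 45.3 CPM in WT and 48.5, 389.8 and 46.9 CPM in the mutant. DIN10 and SIP2, which belong to a family of raffinose enzymes, were low in cost1 control replicate 2, where P5CS1 was high. DIN10 was at 1262, 1391 and 1285 CPM in WT and 1295, 63.1 and 559.6 CPM in the mutant (−1.04, SE 0.70), and SIP2 at 577.2, 701.5 and 621.3 CPM in WT and 767.2, 65.8 and 332.8 CPM in the mutant (−0.70, SE 0.65). Both were lowest in replicate 2 and below every WT library in replicate 3 too, where P5CS1 was at only 46.9 CPM. Neither difference was called.

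Flavonoid and anthocyanin synthesis had the highest list median in replicate 2, at 2.098, beside 0.50 and 0.26 in replicates 1 and 3. Of 12 tested members 7 had an unadjusted p under 0.05, all higher in cost1, beside 3.3% of all genes, and none was called. DFR, an enzyme of the anthocyanin branch, was at 0.634, 0.909 and 0.951 CPM in WT control and 1.43, 71.8 and 1.92 CPM in cost1 control. LDOX, the next enzyme, was at 0.475, 1.97 and 1.58 CPM in WT and 1.91, 67.5 and 2.52 CPM in the mutant. The early enzyme CHS was at 167, 115 and 195 CPM in WT and 221, 607 and 188 CPM in the mutant, so that without replicate 2 the genotypes overlapped. The list median over the group was 1.29 over 12 members with replicate 2. It was 0.33 without it, over the 8 members tested in that fit.

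Jasmonate genes were near the WT mean in 2 mutant libraries and above it in the third, with medians of −0.03, 0.73 and 0.10. VSP2, a vegetative storage protein induced by jasmonate, was at 19.2, 31.2 and 20.8 CPM in WT control and 15.8, 254.5 and 17.8 CPM in cost1 control. Its log2 difference was 2.01 (SE 0.87) with replicate 2 and −0.50 (SE 0.19) without it. LOX2, which acts early in jasmonate synthesis, was at 325.5, 317.6 and 325.9 CPM in WT and 316.8, 1550 and 303.4 CPM in the mutant. Salicylate and defence genes had medians of −0.23, 0.92 and −0.29. WRKY33, a defence transcription factor, did not follow replicate 2, at 27.9, 21.7 and 26.9 CPM in WT and 18.8, 20.2 and 17.0 CPM in the mutant (−0.45, SE 0.26, edgeR adjusted p = 0.965). Nuclear photosynthesis genes also lay above the WT mean in replicate 2, at 0.53 beside −0.10 in each of the others, whereas their median in the WT dehydration response was −0.38. Circadian clock genes lay at −0.05, −0.63 and 0.09, and TOC1, an evening clock gene, was at 110.01, 36.5 and 96.8 CPM in the mutant against 107.4, 125.5 and 113.4 CPM in WT.

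**Figure D4:**
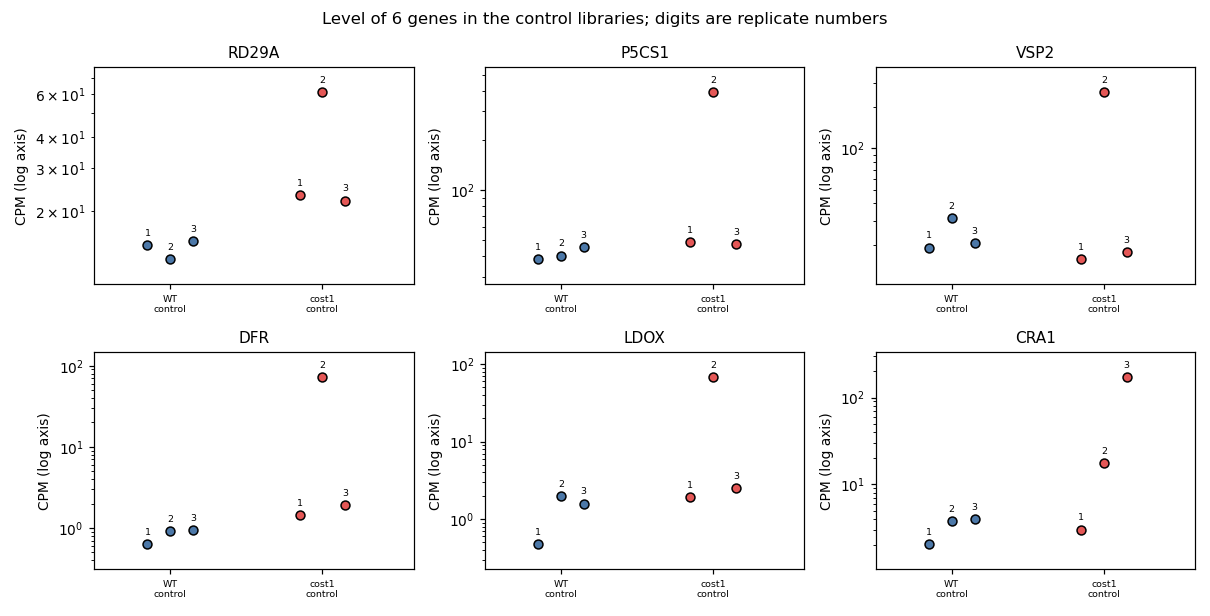
Level in CPM (vertical axis, log scale) of 6 genes in the WT control and cost1 control libraries, with each point marked by its replicate number. RD29A, P5CS1, VSP2, DFR and LDOX are highest in cost1 control replicate 2, and CRA1, a seed storage gene, is highest in cost1 control replicate 3 at 170.5 CPM.

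No gene of nutrient uptake was called by edgeR with all groups in the fit. Of 12 tested genes of nitrate uptake and assimilation 2, GLN1;1 and NRT1.1, were called in the 5 libraries, where 0.101% of all genes were called higher. NIA1, a nitrate reductase, went the other way, at 511.5, 434.3 and 455.8 CPM in WT control and 379.5, 166.9 and 288.7 CPM in cost1 control (−0.75, SE 0.30, edgeR adjusted p = 0.965). The groups did not overlap, and the difference was −0.48 (SE 0.11, adjusted p = 0.138) without replicate 2. Phosphate, sulfur and iron starvation markers had a median of 0.30, or 0.27 without replicate 2, and 0.09, 0.36 and 0.36 in the 3 mutant libraries. SPX1, a phosphate sensor, was at 26.0, 28.8 and 24.9 CPM in WT and 34.4, 45.1 and 69.6 CPM in the mutant. PAP17, an acid phosphatase, was at 48.0, 52.7 and 47.7 CPM in WT and 55.5, 74.1 and 100.8 CPM in the mutant. For both genes, all mutant libraries were above WT and replicate 3 was the highest. LSU1, a sulfur starvation marker, was at 2.22, 1.82 and 2.22 CPM in WT and 2.87, 12.6 and 8.14 CPM in the mutant. Among the iron genes, BHLH100, a transcription factor of the iron deficiency response, was at 31.8, 19.1 and 31.4 CPM in WT and 14.99, 6.21 and 12.3 CPM in the mutant, with no overlap (−1.29, SE 0.82, adjusted p = 0.965).

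No member of the lists of growth and development was called. Cell cycle and DNA replication genes had a median of −0.04 over 29 tested members and −0.09 without replicate 2. Brassinosteroid genes had −0.06 over 13 and 0.04 without it, auxin response genes 0.02 over 14 and 0.09 without it, and aquaporins −0.07 over 18 and −0.01 without it. Cell wall expansion genes had a median of 0.34, which was 0.22 without replicate 2 and 0.55 without WT control replicate 2. Of their 18 members 5 were higher at an unadjusted p under 0.05, beside 3.3% of all genes, and 1 was lower, beside 1.45%. The expansin EXPA10 was at 25.03, 98.3 and 29.8 CPM in cost1 control and 23.6, 24.3 and 25.2 CPM in WT control, again with replicate 2 far above. With and without replicate 2, the median was 0.14 and 0.08 for heat shock and unfolded protein response genes, and 0.31 and 0.11 for glucosinolate synthesis. It was −0.15 and −0.24 for senescence and dark-induced genes, and −0.04 and 0.05 for stomatal lineage and guard cell markers.

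Single members of these lists did not overlap between genotypes without following replicate 2, and both named here were lower in cost1. Of the tested stomatal lineage and guard cell markers, 2 of 11 lay lower without overlap and 0 higher. Of the senescence and dark-induced genes, 3 of 15 lay lower and 2 higher. Over all genes tested, 7.38% lay lower without overlap and 7.77% higher. TOO MANY MOUTHS (TMM), a receptor-like protein that spaces stomata, was at 35.5, 34.9 and 33.9 CPM in WT control and 26.0, 28.0 and 32.6 CPM in cost1 control (−0.27, SE 0.11, edgeR adjusted p = 0.965). Under dehydration it was at 34.7, 31.5 and 29.1 CPM in WT and 21.2, 22.03 and 21.6 CPM in the mutant (−0.55, SE 0.12, adjusted p = 0.307). BCAT2, which breaks down branched-chain amino acids, was at 7.45, 8.19 and 5.70 CPM in WT control and 3.51, 2.55 and 3.11 CPM in cost1 control (−1.21, SE 0.35, adjusted p = 0.965). Its dehydrated libraries overlapped, with a difference of 0.10 (SE 0.33).

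Seed storage and embryo markers differed most in cost1 control replicate 3. The 14 listed genes summed to 2.69 to 5.70 CPM in WT control and to 4.15, 58.8 and 320.0 CPM in cost1 control. CRA1, which encodes a 12S globulin of seeds, made up much of this, at 2.06, 3.79 and 3.96 CPM in WT and 3.03, 17.5 and 170.5 CPM in the mutant (edgeR adjusted p = 0.965). Replicate 1 of the mutant thus lay within the WT range and the others above it. In WT control 7 to 10 of the 14 genes had a count of 0, and in the 3 mutant libraries 9, 1 and 3. Under dehydration the sum was 2.76 to 7.35 CPM in WT and 9.09, 45.7 and 27.2 CPM in cost1. The part of seed RNA in the other differences of these libraries was not tested.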

How the data were processed

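Poly(A) RNA-seq of 12 seedling libraries was used. The submitters' processing notes name the TAIR10 genome, HTSeq 0.6.0, STAR 2.4.0 and DESeq2, without saying which step each served. The authors' deposited tables give, per the file headers, an expected count and an FPKM for each gene; the expected count is not scaled, and the FPKM is scaled to length and depth. A gene absent from a table was read as 0, and the deposited expected counts were rounded to whole numbers, since 8.57% lay more than 0.005 from one.

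Counts were tested with edgeR 4.0.16 in R 4.3.3 (filterByExpr, TMM scaling, meaning a trimmed mean of M values, 1 coefficient for each of the 4 groups, quasi-likelihood F tests, Benjamini-Hochberg over all 18809 genes tested). The script was tested on simulated data. SEs come from the F statistic. Alternatives used limma 3.58.1 on counts with voom weights and on log2(FPKM + 0.1) or log2(FPKM + 1), DESeq2 1.42.0, other scalings and filters, the control libraries alone, and each library left out in turn. The fit called the 5 libraries leaves out cost1 control replicate 2.

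Members of 27 lists were found by symbol in a TAIR10.1 annotation used for names and gene order only; 445 of 514 loci were tested. Of the symbols, 36 were left out because they matched no gene or several or, in 3 cases, another gene, and a list of ribosomal proteins was dropped because symbols mixed gene families. Named genes were COST1, all called genes, the called genes of the 5 libraries with no overlap and at least 5 FPKM (up to 10 with the smallest p), in each list up to 3 members, by smallest p in control, and the neighbours of COST1. Other genes, list members such as NBR1, CHS, BHLH100 and ASFT among them, were chosen after their values were seen. The comparison, the lists and the alternatives were chosen with earlier results of these data known. Counting intervals and floors cover counting error only.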

Additional observations from a re-analysis of the deposited data

Results flagged for a closer look

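AT4G34080, a DUF641 gene related to COST1, lay in opposite directions in the control and the dehydrated seedlings. In control all 3 cost1 libraries were above all 3 WT libraries, by 1.59 on the log2 scale (SE 0.46), and under dehydration all 3 cost1 libraries, at 2.02, 2.33 and 3.52 CPM, were below the WT libraries, at 4.88, 6.37 and 3.68 CPM (−0.92, SE 0.32). The difference of the differences was −2.51 (SE 0.56, unadjusted p = 0.000747), and in edgeR's interaction test over all genes its adjusted p was 0.999. Its control counts are few, so that the direction there rests on a low level.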

How the results depend on the processing

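The count of genes higher in cost1 control, 3, was 1 in the control libraries alone, 18 there without cost1 control replicate 2, 13 with DESeq2 and 9 with voom library quality weights. It ranged from 0 to 4 with 1 library left out of the fit of all groups, and the count of lower genes, 1, from 1 to 3. Other scalings, no filter, robust dispersions and FPKM each gave 3 and 1. With the replicate number as a block in the control libraries, 0 were higher and 0 lower (988 at an unadjusted p under 0.05), and COST1 kept its difference of −2.10 with edgeR adjusted p = 0.594. Same-numbered libraries deviated from their group means with correlations of 0.03, −0.12 and −0.14 across genes, and differently numbered ones with −0.074 to 0.145. With 3 libraries in a group and cost1 control replicate 2 far apart, these values cannot tell whether the numbers pair the libraries. COST1 was called under the other 17 alternatives.

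Among single genes, 30 values changed sign, most of them without cost1 control replicate 2. In the 5 libraries, HAI1 was at −0.28, LHCB6 at −0.040, LHCB3 at −0.031, VSP1 at −0.24, VSP2 at −0.50, LOX2 at −0.058, PAD3 at −0.28, SAG13 at −0.52 and MYB29 at −0.15. With voom weights, which gave that library 0.408 and the other control libraries 1.21 to 2.43, HAI1 was at −0.29, VSP2 at −0.049, PAD3 at −0.061 and SAG13 at −0.15. With each library left out of the fit of all groups in turn, HAI1 ranged from −0.29 to 2.33, LHCB6 from −0.043 to 0.50, LHCB3 from −0.033 to 0.70, VSP1 from −0.24 to 2.53, VSP2 from −0.50 to 2.52, LOX2 from −0.060 to 1.53, PAD3 from −0.29 to 1.54, SAG13 from −0.52 to 2.26 and MYB29 from −0.16 to 1.05. In the same way AT3G16670 ranged from −0.10 to 0.52, WOX5 from −0.69 to 0.27, SHR from −0.00903 to 0.15 and RAD51C from −0.085 to 0.34. AT3G16670 was at −0.00929 on log2(FPKM + 0.1), with and without a filter, and −0.00772 on log2(FPKM + 1). The cause of the sign changes was not tested. Of the other values of single genes, 19 lost a call, 15 gained one and 1558 did neither. Of the list medians 11 moved by more than the spread between libraries and 232 did not. Genes of a few CPM rest on few reads at this depth.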
